A study of Mus musculus with 4 samples.

Results

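Runx3 peaks inside introns at more than 1 kb and at most 10 kb from the nearest transcription start site (TSS) numbered 2318, which is 15.3% (Wilson 95% interval 14.8 to 15.9%) of the 15121 peaks called in splenic CD4+ dendritic cells (DC). A peak was placed here when its centre lay in that distance range from a TSS of any GENCODE M1 transcript, inside the body of any annotated gene and outside every annotated exon. The data are Runx3 chromatin immunoprecipitation followed by sequencing (ChIP-seq) in CD11chiMHCII+CD4+ DC that were sorted from spleens. They comprise 2 Runx3 immunoprecipitates as biological replicates and 2 input libraries of whole cell extract chromatin. About 15 mice are given for each of these samples. The labels give the strain C57BL/6, except for 1 input library that is labelled C57BL/7, and name no genotype, age or treatment. The antibody was a home-made polyclonal one. The deposited list is a peak call of the immunoprecipitates against the inputs with 1 score per peak, and it holds no separate values for the replicates. Replicate error is therefore unknown for every value below. Reads per library were not analysed here, a list of regions holds no expression by which the labelled cell type could be checked, and where no peak is listed, binding below the calling limit may still exist.

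Runx3 belongs to the RUNX family of transcription factors, which bind DNA through the conserved Runt domain together with the partner CBFβ at sites with the core TGTGGT. RUNX factors act at promoters and at distal elements, and introns near the start of a gene often hold such elements. In the spleen, CD4+ DC are conventional DC that take up antigen and present it on MHC class II to CD4+ T cells. Their development depends on the ETS factor PU.1, on IRF factors and on Notch signalling through RBPJ. The zinc finger factor zDC, product of Zbtb46, marks conventional DC.

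The 5 intronic peaks with the highest scores are shown first because each holds the RUNX hexamer. Each line gives 120 bases of mm9 around the TGTGGT nearest the peak centre, 5′ to 3′ on the strand that reads TGTGGT, which is in capitals.
Psma6, chr12:56490967-56491086, minus strand: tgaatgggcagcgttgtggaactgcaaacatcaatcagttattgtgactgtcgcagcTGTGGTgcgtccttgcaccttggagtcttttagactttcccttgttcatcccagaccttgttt
Mapk12, chr15:88961893-88962012, plus strand: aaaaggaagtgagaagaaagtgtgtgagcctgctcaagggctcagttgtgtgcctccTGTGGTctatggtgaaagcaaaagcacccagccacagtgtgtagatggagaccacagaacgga
Ctnnd2, chr15:30540400-30540519, plus strand: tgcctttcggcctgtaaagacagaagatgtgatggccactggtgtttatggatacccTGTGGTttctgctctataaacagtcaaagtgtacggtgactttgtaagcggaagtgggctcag
Ampd3, chr7:117940228-117940347, plus strand: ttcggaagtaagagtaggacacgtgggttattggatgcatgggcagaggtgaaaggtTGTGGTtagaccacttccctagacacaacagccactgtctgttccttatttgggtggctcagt
Rere, chr4:149940321-149940440, minus strand: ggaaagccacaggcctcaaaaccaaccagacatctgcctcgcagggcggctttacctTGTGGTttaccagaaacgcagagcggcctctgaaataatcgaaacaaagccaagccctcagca

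The highest of them, chr12:56490510-56491182 in Psma6, a proteasome subunit gene, had a score of 199 and ranked 8 in the whole list, 5637 bp downstream of a Psma6 TSS. The peak chr15:88961604-88962315 lies in intron 11 of 11 of Mapk12, a p38 kinase gene, scored 174 and is nearer to a TSS of Hdac10, a histone deacetylase gene, at 2830 bp. The peak chr15:30540093-30540839 in intron 3 of Ctnnd2, which encodes a catenin, scored 159 and held 3 copies of TGTGGT. Both others of these 5 scored 159 as well, namely chr7:117939996-117940620 in intron 6 of Ampd3, an AMP deaminase gene, and chr4:149940014-149940792 in intron 11 of Rere, a transcriptional corepressor gene. The next 5 by score lay in Il6ra, the receptor chain of interleukin 6 (153, intron 1, chr3:89714996-89715680), Asb2, which encodes a ubiquitin ligase subunit (148), Slc2a1, a glucose transporter gene (148), Itsn1, an endocytic scaffold gene (145) and Cd47, whose product restrains phagocytosis (145, intron 1, chr16:49858559-49859218). All 10 held TGTGGT within the peak, against 68.4% of all intronic peaks in the range. They were 625 to 820 bp wide, where the median of all was 401 bp. For 5 of the 10 the nearest TSS belonged to another gene, against 17.5% of all. Among the 100 highest scores of the whole list, 18 were intronic peaks of this kind, which make up 15.3% of all peaks.

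A further 16 of the intronic peaks lay in 11 of 22 genes that the study discusses or that are known for DC biology. Over all 18453 protein-coding genes with eligible intronic sequence, that is intron sequence in the same distance range, 9.17% held such a peak, and the share rose with the amount of that sequence, which ran from 0.515 to 55.4 kb in the 22 genes. For Cx3cr1, Clec12a, Itgam, Itgax, Flt3 and Rbpj, the study reports Runx3 binding from this same ChIP-seq. The 22 genes are thus not independent of these peaks, and their shares are a description only. Sequences are shown for those peaks that hold TGTGGT outside exons, with the hexamer again in capitals.
Runx1, farther from the TSS, chr16:92818947-92819066, minus strand: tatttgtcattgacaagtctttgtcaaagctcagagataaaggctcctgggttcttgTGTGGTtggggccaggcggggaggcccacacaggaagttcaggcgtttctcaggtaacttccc
Runx1, nearer the TSS, chr16:92822131-92822250, plus strand: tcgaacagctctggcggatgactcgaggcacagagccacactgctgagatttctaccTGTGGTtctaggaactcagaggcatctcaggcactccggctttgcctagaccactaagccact
Runx3, near the TSS, chr4:134678178-134678297, plus strand: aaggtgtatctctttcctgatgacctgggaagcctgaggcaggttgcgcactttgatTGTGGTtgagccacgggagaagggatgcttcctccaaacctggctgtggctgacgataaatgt
Runx3, intron 3, chr4:134715878-134715997, minus strand: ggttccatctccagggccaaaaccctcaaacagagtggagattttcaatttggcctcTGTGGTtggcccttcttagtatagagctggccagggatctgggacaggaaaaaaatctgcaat
Smad3, strongest, chr9:63586018-63586137, minus strand: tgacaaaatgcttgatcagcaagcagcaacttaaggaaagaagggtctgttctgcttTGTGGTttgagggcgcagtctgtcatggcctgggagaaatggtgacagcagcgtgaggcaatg
Smad3, second, chr9:63569457-63569576, minus strand: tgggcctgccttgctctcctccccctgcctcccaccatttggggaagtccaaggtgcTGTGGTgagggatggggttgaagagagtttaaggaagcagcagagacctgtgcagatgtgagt
Smad3, weakest, chr9:63588507-63588626, plus strand: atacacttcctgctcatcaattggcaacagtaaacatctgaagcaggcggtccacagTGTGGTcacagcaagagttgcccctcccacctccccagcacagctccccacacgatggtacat
Cx3cr1, chr9:119967830-119967949, minus strand: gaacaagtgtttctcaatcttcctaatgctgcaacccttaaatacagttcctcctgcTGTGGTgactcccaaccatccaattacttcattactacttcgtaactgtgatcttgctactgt
Csf3r, chr4:125707988-125708107, plus strand: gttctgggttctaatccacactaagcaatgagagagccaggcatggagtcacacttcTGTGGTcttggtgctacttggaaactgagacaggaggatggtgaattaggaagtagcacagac
Kit, chr5:76003339-76003458, minus strand: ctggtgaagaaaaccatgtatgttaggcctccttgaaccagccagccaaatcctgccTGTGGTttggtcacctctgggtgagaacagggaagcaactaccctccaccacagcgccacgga

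Runx3 itself held 3 such peaks, at 1607 bp from its TSS (chr4:134678037-134678311, score 4.73), in intron 1 at 8284 bp (chr4:134684590-134685112, score 24.1, without TGTGGT) and in intron 3 (chr4:134715721-134716096, score 5.30). Its paralogue Runx1 held 2, chr16:92818681-92819181 and chr16:92821797-92822742, with scores of 54.7 and 49.7, and the latter held 5 copies of TGTGGT. Smad3, a transducer of TGF-β signals, held 3 peaks in intron 1, with scores of 51.5 (chr9:63585366-63586317), 31.3 (chr9:63569307-63569715) and 27.5 (chr9:63588189-63588728). The scores in Runx1 and Smad3 were thus all above the list median of 12.1, whereas 2 of the 3 in Runx3 were below it. In the chemokine receptor genes Ccr2 and Cx3cr1, the peaks chr9:124027291-124027689 and chr9:119967659-119968220 scored 30.4 and 16.5. Among growth factor and cytokine receptor genes, the peaks scored 27.8 in Flt3, the receptor of the main DC growth factor, 15.0 in Csf3r, 11.2 in Il1r2 and 7.20 in Kit. The peaks in Itgax, which encodes CD11c, and in Notch2 scored 5.30 and 3.69. The hexamer was found in 11 of these 16 peaks, against 68.4% of all 2318 intronic peaks, and was lacking in those of Flt3, Il1r2, Itgax and Notch2 and in 1 of Runx3, with scores of 3.69 to 27.8. The list median was reached or passed by 10 of 16, against 51.1% of all intronic peaks. The other 11 genes, Clec12a, Rbpj, Itgam, Irf4, Irf8, Spic, Mertk, Esam, Zbtb46, Batf3 and Id2, held none. A peak within 1 kb of a TSS was present in 6 of them, against 28.3% of all eligible protein-coding genes. Of the 11 genes with an intronic peak, 8 also had a peak within 1 kb of a TSS, which was the case for 46.4% of all protein-coding genes with an intronic peak. The choice of the genes limits both of these shares too, and they are a description only.

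Position within the range was examined next. Eligible sequence, meaning sequenced bases that meet the same rule of distance, gene body and exons, came to 306 Mb or 12.0% of the sequenced genome. The peaks occurred at 7.58 per Mb (exact Poisson 95% interval 7.28 to 7.90), against 6.28 (5.98 to 6.60) between genes at the same distances and 3.80 (3.65 to 3.96) in introns beyond 10 kb. These intervals, like all intervals here, cover counting error only, and the densities are a description because position defined the classes. The excess over sequence between genes depended on which TSS were counted, with a density ratio of 1.21 for TSS of all genes and 0.988 for TSS of protein-coding genes. The density in introns was highest just past the lower limit, at 10.2 per Mb (9.34 to 11.1) between 1 and 2 kb from a TSS, and 8.09 (7.27 to 8.98) between 2 and 3 kb. Beyond 3 kb it lay between 5.51 and 7.67 per Mb, and only the intervals of the lowest and the highest of these bins did not overlap. Scores showed no such gradient, and the bin medians ran from 11.8 to 14.2.

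**Figure D1:**
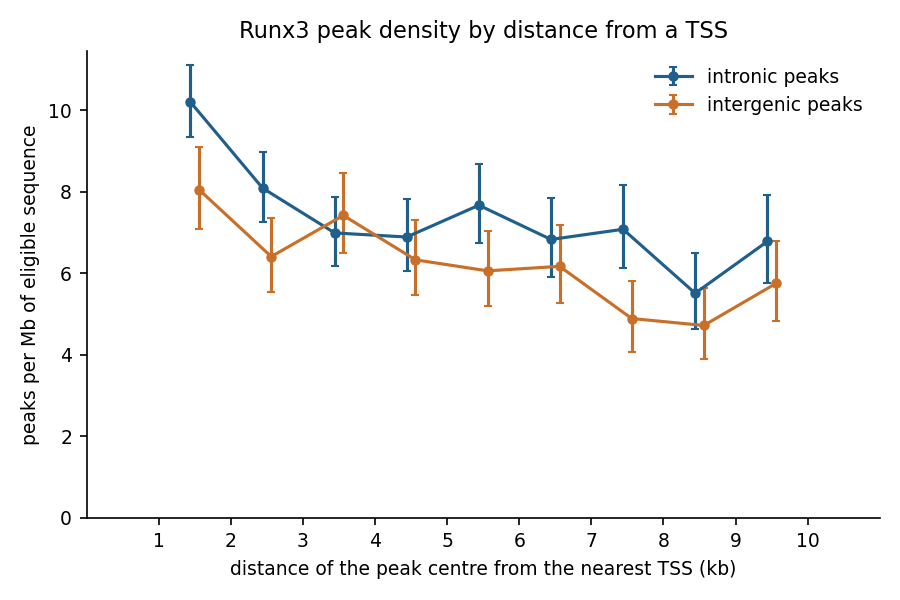
Runx3 peaks per Mb of eligible sequence (y axis) in 1-kb bins of distance from the nearest TSS (x axis, kb), for intronic peaks and for peaks between genes; bars are exact Poisson 95% intervals. Intronic density fell from 10.2 per Mb at 1 to 2 kb to 6.78 at 9 to 10 kb, and peaks between genes went from 8.05 to 5.75.

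At the lower limit of the range, the nearest intronic centre outside lay 998 bp from a TSS (Clip1, score 6.57) and the nearest inside 1001 bp (Sema4d, score 10.5). At the upper limit, the last peak inside was at 9994 bp (Aim2, score 13.4) and the next outside at 10011 bp (2610019F03Rik, score 6.57). Intronic centres in the last 100 bp below 1 kb numbered 89, with a median score of 11.2, against 65 with a median of 10.5 in the next 100 bp.

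Most of the intronic peaks followed a start site of the gene they lie in. The nearest TSS belonged to the host gene and lay upstream of the peak for 1439 peaks (62.1%), belonged to the host gene but lay downstream of the peak for 474 (20.4%), and belonged to another gene for 405 (17.5%). The median scores of these 3 sets were 12.4, 12.7 and 14.1. The outermost TSS of the host gene was the nearest for 508 of the 1439 peaks, and for the other 931 it was another annotated start site inside the gene. With 1 TSS per gene in place of every transcript, 1900 peaks met the rule. The host was protein-coding for 2210 peaks (95.3%), a lincRNA gene for 61 and a processed transcript gene for 45.

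Intron 1 held 997 of the 2043 peaks that fell in an intron of the longest spliced coding transcript of their gene, 48.8% of them, on 33.7% of the eligible intronic sequence. The density was 11.1 per Mb (10.4 to 11.8) in intron 1, 8.04 (7.22 to 8.93) in intron 2, 6.13 (5.22 to 7.16) in intron 3 and 4.97 (4.56 to 5.41) in intron 4 and later ones. The median score was 12.7 in introns 1 and 2, 12.6 in intron 3 and 13.2 in later introns. The intervals of introns 1, 2 and 3 did not overlap each other, whereas those of intron 3 and later introns did. The median distance of the peaks from a TSS was 3749 bp in introns 1 and 2, 4368 bp in intron 3 and 4912 bp in later introns, and its part in these densities was not tested. The share of peaks at or above the list median stayed within 50.4 to 52.0%.

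Scores of the intronic peaks ran from 1.62 to 199 with quartiles of 7.20, 12.7 and 24.1, and widths from 253 to 1378 bp with a median of 401 bp. The score is the value written by the peak caller, in a unit that is not stated, and serves only to rank peaks within the list. The list median was reached or passed by 1184 of 2318 (51.1%), by 47.7% of the 1597 peaks between genes at the same distances, by 48.3% of the 2314 intronic peaks beyond 10 kb and by 49.9% of all 12803 other peaks. None of these differences passed at an adjusted p of 0.05 (two-sided Fisher's exact test, Benjamini-Hochberg over 3 comparisons; odds ratios 1.15, 1.12 and 1.05, adjusted p = 0.0843, 0.0843 and 0.279, and unadjusted p = 0.0374, 0.0562 and 0.279). The first and second passed with near peaks joined, both at an adjusted p = 0.0457 (Fisher's exact test). The third turned to an odds ratio of 0.994 when peaks with a base in an exon were no longer taken as intronic (adjusted p = 0.907, Fisher's exact test). Such peaks were then counted among all other peaks. Peaks are regions of a common peak call and not independent replicates, so all p-values on peaks describe this list.

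The RUNX hexamer marked the centres of the intronic peaks. TGTGGT, searched on both strands, was present in 1585 of 2318 whole peaks (68.4%), and in the 2256 peaks with a usable control it was present in 68.3%, against 30.9% of windows of equal width 10 kb downstream. For windows, downstream means toward the higher coordinate, whatever the strand of the gene. The hexamer was found in the peak alone for 1046 pairs and in the window alone for 202 (two-sided exact McNemar test, p = 1.44e-137). In the 200 bp around the centre the shares were 56.3% and 15.8%, a ratio of 3.56. Per kb, hexamers reached 6.02 in the 40 bp just above the centre and 4.45 in the next 40 bp, whereas they numbered 0.709 to 1.14 per kb in the 40 bp bins beyond 200 bp. They lay off the middle: of the 1714 hexamers within 100 bp of a centre, 62.7% were at the higher coordinate, with a median offset of 16 bp. The same offset, 12 to 19 bp, was present in each of the other classes of peaks.

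**Figure D2:**
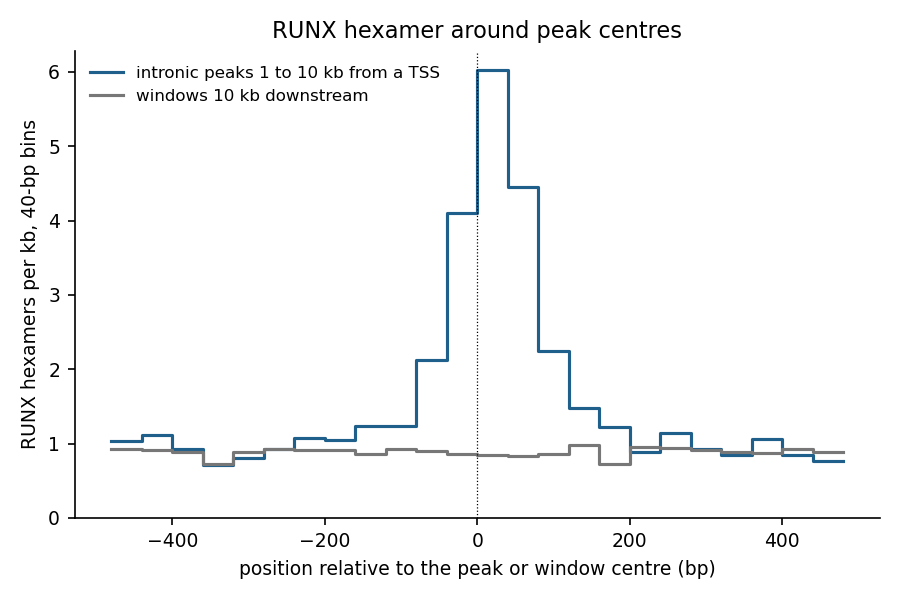
RUNX hexamers per kb (y axis) in 40-bp bins of position relative to the centre of intronic peaks 1 to 10 kb from a TSS and of windows 10 kb downstream (x axis, bp). The peaks reach 6.02 per kb between 0 and 40 bp, and the windows show no rise at the centre.

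The bases beside the hexamer were not those of the windows. Among 1649 hexamers in the central 200 bp of peaks, the base before it was C in 40.9% and T in 27.1%, against 27.8% and 17.3% of 381 hexamers in windows, and the base after it was T in 45.5% against 31.5%. The variant core TGCGGT was present in 11.6% of the peaks and 1.91% of windows (ratio 6.12, adjusted p = 2.45e-40, exact McNemar test). Together, 1479 peaks (63.8%) held TGTGGT or TGCGGT near the centre, with a median score of 14.1, and 839 held neither, with a median of 11.2. As stretches of 14 bases seldom repeat, their number does not measure how diverse the flanks were. In 1291 peaks, 1554 different stretches of this length around TGTGGT occurred, and just 1 of them, atgtTGTGGTgacc, was present in 5 or more. That stretch was in 7 of the peaks, among them those in C5ar1 (score 64.7) and Dnajb13 (49.4), in 5 intronic peaks beyond 10 kb and in 1 window.

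Peaks with the hexamer scored higher. Of the 1305 peaks with TGTGGT in the central 200 bp, 54.0% scored at or above the list median, against 47.3% of the 1013 without it (odds ratio 1.31, two-sided Fisher's exact test, p = 0.00145). Over whole peaks the shares were 55.2% and 42.2% (odds ratio 1.69, Fisher's exact test, p = 5.92e-09), where the peaks with the hexamer were also broader (median 415 bp against 366 bp). By number of copies in the whole peak, the median score was 10.3 for 0, 12.0 for 1, 17.3 for 2 and 19.9 for 3 or more copies, as the median width rose from 366 to 514 bp. In the 200 bp of fixed length, it was 11.4, 12.7, 16.5 and 13.1, so that the 59 peaks with 3 or more copies did not continue the order. The part of width in these differences over whole peaks was not tested.

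**Figure D3:**
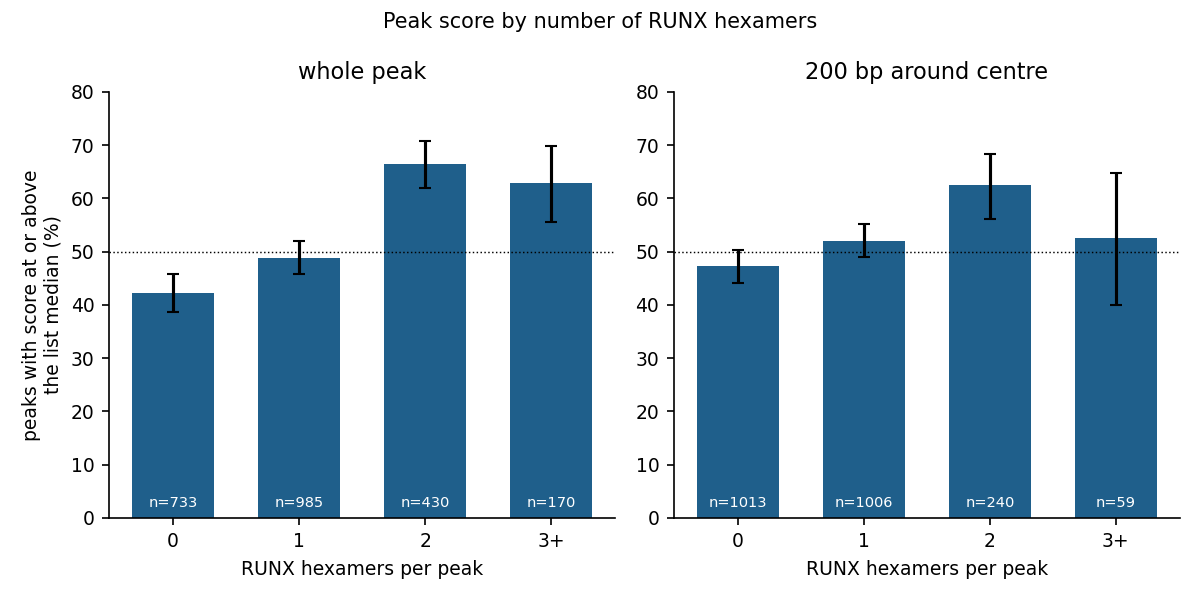
Share of intronic peaks whose score reached the list median (y axis, %) by the number of TGTGGT copies (x axis), in the whole peak (left) and in the 200 bp around the centre (right); bars are Wilson 95% intervals, n is the number of peaks, and the dotted line is 50%. In whole peaks the share is 42.2% without a copy and 66.5% with 2 copies.

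Of the other 12 motifs searched in the central 200 bp, on both strands, the PU.1 motif GAGGAAGT stood furthest from its windows in relative terms. It was present in 314 peaks (13.5%) and in 1.24% of windows, a higher ratio than for the other 13 motifs (adjusted p = 1.53e-63, exact McNemar test, Benjamini-Hochberg over 14 motifs). The NF-kB motif GGGANTTCC followed with 2.50% against 0.488% (ratio 5.09, adjusted p = 7.51e-08, exact McNemar test). Smaller differences in the same direction that passed were those of the KLF motif CCACACCC (3.97% against 1.95%), the RBPJ motif GTGGGAA (7.03% against 3.63%), the AP-1 motif TGANTCA (8.97% against 4.83%), the zDC hexamer TGACGT (3.45% against 2.17%, adjusted p = 0.00978 in the exact test), the IRF motif GAAANNGAA (9.02% against 5.72%) and the ETS-IRF motif GGAANNGAA (10.7% against 7.80%). The GATA motif AGATAA and the E-box CAGGTG were rarer in the peaks, at 6.08% against 9.66% and 11.1% against 15.7% (adjusted p = 1.74e-05 and 9.12e-06, exact McNemar test). The C/EBP motif TTGCNNAA and the STAT motif TTCNNNGAA missed the threshold, with an adjusted p = 0.440 for both in the exact test. Some patterns share letters. The KLF match overlapped a TGTGGT in 44 of its 92 peaks. It was present in 5.44% of peaks with TGTGGT and in 2.07% of those without, the latter near the 1.95% of windows. The ETS-IRF match overlapped a PU.1 match in 17 of its 248 peaks, and no PU.1 match overlapped a TGTGGT. A match is a description of letters, and no match says nothing about a factor.

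**Figure D4:**
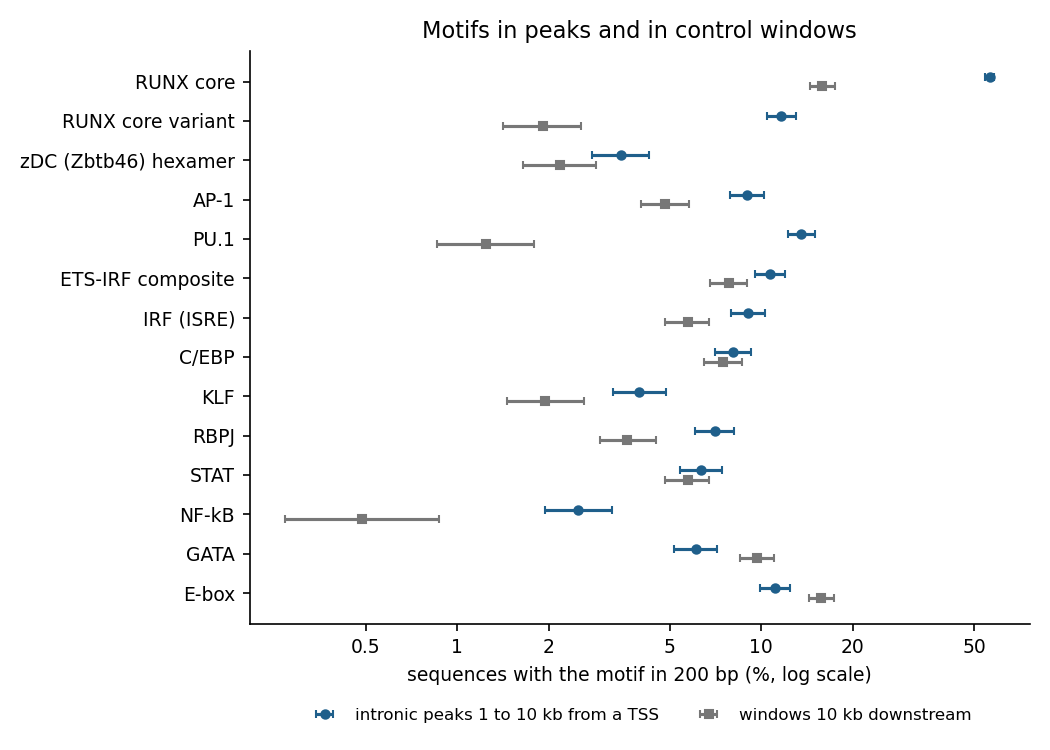
Share of sequences with each motif in 200 bp (x axis, %, log scale) for intronic peaks 1 to 10 kb from a TSS and for windows 10 kb downstream, 1 row per motif; bars are Wilson 95% intervals. PU.1, the variant RUNX core, NF-kB and the RUNX core are separated most, in this order, and GATA and the E-box are lower in the peaks.

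PU.1 and RUNX letters were also counted together. GAGGAAGT was present in 164 of the 1013 peaks without TGTGGT (16.2%) and in 150 of the 1305 with it (11.5%), given as a description. The variant core TGCGGT was likewise in 17.2% and 7.36%. Peaks with both TGTGGT and GAGGAAGT numbered 150 and had a median score of 17.3, and the 687 with neither RUNX core nor the PU.1 motif had a median of 11.1.

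The intronic peaks were then set against other Runx3 peaks. TGTGGT in the central 200 bp was present in 56.3% here, 56.1% of intronic peaks beyond 10 kb (odds ratio 1.01, adjusted p = 0.962), 49.0% of peaks between genes at the same distances (odds ratio 1.34, adjusted p = 8.35e-05) and 39.1% of all other peaks (odds ratio 2.0, adjusted p = 3.58e-51, Fisher's exact test, Benjamini-Hochberg over 42 comparisons). Of 14 motifs, 2 passed against intronic peaks beyond 10 kb, namely TGCGGT (11.6% against 8.86%) and AGATAA (6.08% against 8.56%), and 2 passed against peaks between genes, namely TGTGGT and CAGGTG (11.1% against 13.8%). The calls of AGATAA and CAGGTG were lost over whole peaks (adjusted p = 0.0905 and 0.207), and those of TGCGGT and CAGGTG at or above the list median (adjusted p = 0.134 and 0.447, Fisher's exact test for all). All other peaks include those within 1 kb of a TSS, whose central 200 bp had a median GC content of 61.5%, against 49.0% in the intronic peaks, and 8 motifs differed there. Among these, the PU.1 motif was more frequent in the intronic peaks (13.5% against 9.64%, odds ratio 1.47) and the zDC hexamer TGACGT less so (3.45% against 6.30%, odds ratio 0.531, adjusted p = 3.41e-07, Fisher's exact test). Neither passed against intronic peaks beyond 10 kb or peaks between genes. The PU.1 motif was present there in 13.8% and 12.6% (adjusted p = 0.859 and 0.581, Fisher's exact test). The zDC hexamer was present in 4.36% and 4.20% (adjusted p = 0.261 and 0.464, Fisher's exact test). The part of base composition in the differences from all other peaks was not tested.

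The intronic peaks lay in 1693 protein-coding genes, 9.17% of the 18453 that have any eligible intronic sequence. Of these genes, 1302 held 1 peak, 271 held 2, 76 held 3 and 44 held 4 or more. The share of genes with a peak rose with their eligible sequence, from 1.09% at up to 2 kb to 19.3% above 20 kb, and host genes had a median of 21.4 kb against 8.85 kb in the others. A peak within 1 kb of a TSS was present in 786 of the 1693 host genes (46.4%) and in 28.3% of all eligible genes. Conversely, an intronic peak was present in 15.1% of genes with such a promoter peak and in 6.85% of those without, whose median eligible sequence was 9.29 and 8.87 kb. The nearest other peak lay at a median of 8328 bp from an intronic peak, and 137 of the peaks (5.91%) had another peak within 1 kb.

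The genes with the most peaks were Gm20388, Ston2, Amz1, Tnfaip8 and Dapp1. Gm20388 is a gene model of 4435 kb on chromosome 8 that spans 72 other protein-coding genes, and 8 of its 23 peaks lay in no other gene. Ston2, an endocytosis adaptor gene, held 7 peaks with scores from 10.8 to 55.8, and the strongest, chr12:93003610-93004461 in intron 1, held 3 copies of TGTGGT. Amz1, a metalloprotease gene, held 6 between 3.17 and 43.1, of which the strongest was chr5:141206839-141207422 in intron 2. Tnfaip8, a gene induced by tumour necrosis factor, held 6 with scores of 3.19 to 27.6. Dapp1, an adaptor of B cell receptor and phosphoinositide signals, held 6 as well, all below the list median, between 2.67 and 11.1. The 5 widest peaks lay in Nsl1 (1378 bp, score 42.1), Adora3 (1342 bp, 46.2), Rhoh, a GTPase gene of blood cells (1300 bp, 76.5), Fhad1 (1211 bp, 54.7) and Slc36a3 (1202 bp, 32.3).

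Genes were then read in lists, each beside the background of 9.17%. Of 384 symbols in 10 lists, 382 matched a protein-coding gene. Among actin cytoskeleton and phagocytosis genes, 19 of 38 (50.0%) held an intronic peak. The highest were in Myo1f, a myosin gene (89.4, chr17:33700213-33701106, intron 1 of 27), and Lcp1, which encodes the actin bundler L-plastin (84.6 and 53.7, both in intron 2), and the hosts also included Vav1, Vav2, Rac2, Cdc42, Rhoa, Dock2, Arpc2, Actr2 and Actr3. Among chemokine receptors, integrins and adhesion genes, 15 of 33 (45.5%) did, with 145 in Cd47, 35.2 in Itgal and 33.2 in Itgb2, the chains of the integrin LFA-1. Among immune kinases, phosphatases and adaptors, 16 of 38 (42.1%) did, with 85.8 in Ptpre, a phosphatase gene, and 44.2 in Pik3r6. Among cytokine and growth factor receptors, 15 of 37 (40.5%) did, with 153 in Il6ra, 44.2 in Il4ra and 35.2 in Il17ra. These 4 lists had median eligible sequences of 16.3, 9.0, 13.1 and 9.0 kb against the 8.85 kb of eligible genes without a peak.

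Lower shares, still above the background, were found in 7 of 28 pattern recognition genes (25.0%), 12 of 49 transcription factors of DC and their lineage (24.5%), 8 of 39 genes of Notch and TGF-β signalling (20.5%), 5 of 32 antigen presentation genes (15.6%) and 5 of 36 C-type lectin and uptake receptors (13.9%), and the Wilson intervals of the last pair reached below 9.17%. In pattern recognition, Irak3, an inhibitor of Toll-like receptor signals, led with 109 in intron 1 (chr10:119630235-119630827), and Irak2 followed with 39.1. Bach2, a repressor of the BACH family, held 59.1 and 51.5, Sfpi1, which encodes PU.1, held 4 peaks of up to 37.1, and Bcl6, Rel, Stat3, Fli1 and Irf2 held weaker ones between 7.20 and 11.2. In Notch and TGF-β signalling, Smad3 and Dtx1, a Notch pathway regulator (33.2), were above the list median and Smad4, Smad6, Smurf1, Adam17, Maml3 and Notch2 below it, between 3.69 and 6.57. In antigen presentation, the invariant chain gene Cd74 (46.2) and March1, a ubiquitin ligase that removes MHC class II from the surface (42.9), were strong, while Ciita, the MHC class II transactivator, Ctsz and H2-Eb1 scored 7.53, 7.44 and 3.68. Among uptake receptors, Havcr2, which encodes TIM-3, scored 46.0, Lrp1 20.6 and Timd4 16.5. Neuronal and cardiac muscle genes, the control list, held a peak in 2 of 38 genes (5.26%), Dlg2 and Dlg4 with 17.3 and 13.9, although their median eligible sequence was 26.3 kb. The Wilson interval of this share, 1.46 to 17.3%, included the background of 9.17%. Some of these host genes named beyond the 3 strongest of a list were chosen after their values were seen.

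**Figure D5:**
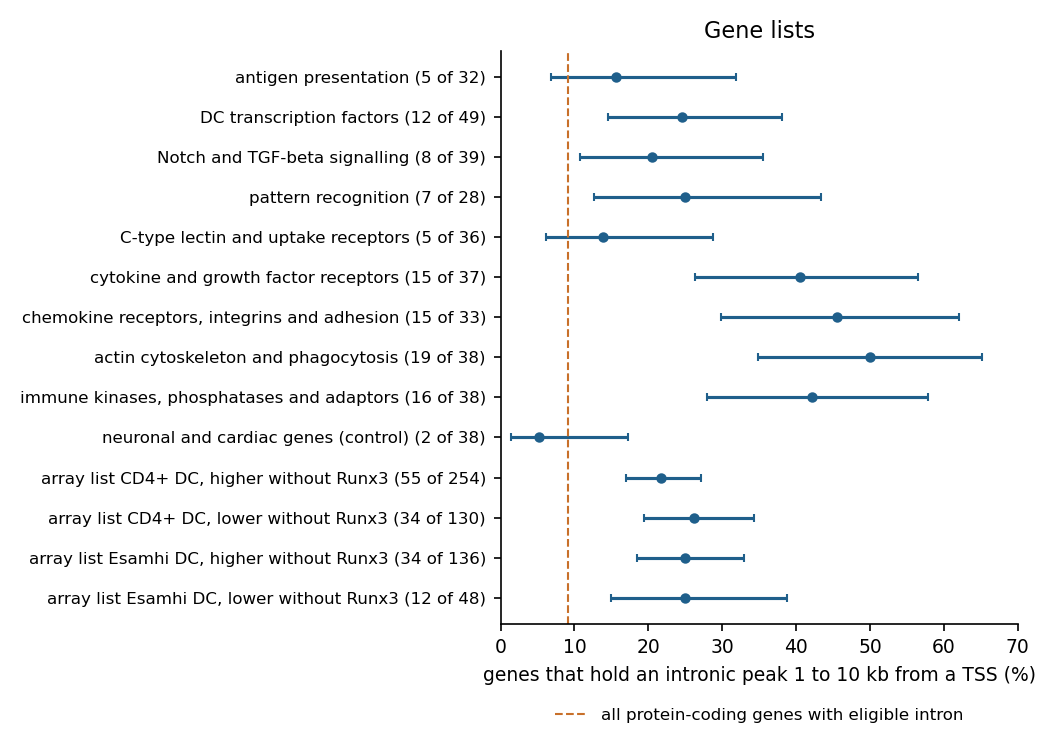
Share of genes with eligible intronic sequence that hold an intronic peak 1 to 10 kb from a TSS (x axis, %), 1 row per gene list with the count of genes; bars are Wilson 95% intervals and the dashed line is the background of 9.17%. The actin list is highest at 50.0% and the control list lowest at 5.26%.

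The same count over peaks that scored at least the list median, against 5.22% of all eligible genes, left 14 of 38 actin genes (36.8%), 10 kinase and adaptor genes (26.3%), 9 cytokine receptor genes (24.3%) and 7 adhesion genes (21.2%). Antigen presentation and Notch and TGF-β signalling kept 2 genes each, at 6.25% and 5.13%, and the control list kept its 2 of 38 (5.26%), so that at this threshold it was not below the background.

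Genes that differed on arrays between DC with and without Runx3 were taken as lists alone, by direction. The study chose them on other samples and their values were not analysed here. In Runx3-/- CD4+ DC, 55 of 254 genes that were higher without Runx3 (21.7%) and 34 of 130 that were lower (26.2%) held an intronic peak. In Esamhi DC, in which Runx3 was deleted by CD11c-Cre, the counts were 34 of 136 (25.0%) and 12 of 48 (25.0%). The Wilson intervals of higher and lower genes overlapped in both, 17.0 to 27.1% against 19.4 to 34.3% and 18.5 to 32.9% against 14.9 to 38.8%, and all 4 lists lay above 9.17%. The strongest peaks in genes higher without Runx3 were in Irak3 (109), Adora2a, an adenosine receptor gene (99.6, chr10:74789101-74789745), Snx8 (55.8), Pld3 (54.7) and Smad3 (51.5) on the first pair of lists and in Irak3, Itgad (59.1), Runx1 (54.7), Cmtm7 (52.1) and Smad3 on the second. In genes lower without Runx3 they were in Ctnnd2 (159), Ampd3 (159), Rgs12, a regulator of G protein signals (76.2), Lrrc16a (54.0) and Gpr124 (50.4) on the first pair and in Ctnnd2, Eml3 (49.4), Pik3r6 (44.2), 1300002K09Rik (29.1) and Slc8a2 (25.8) on the second. A peak in an intron does not assign the peak to that gene, and for Ctnnd2, Ampd3, Rgs12, Gpr124, Eml3, Cmtm7 and 1300002K09Rik the nearest TSS belonged to another gene.

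By chromosome, the intronic set made up 11.9% (chromosome 19) to 19.5% (chromosome 4) of peaks, and its median score was lowest on chromosomes 18 and X (8.98 and 9.59) and highest on chromosome 12 (16.2).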

How the data were processed

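Per the labels, Runx3 ChIP-seq reads of 50 bp were processed by the authors with CASAVA 1.8, Bowtie and MACS2 on mm9, and the deposited file holds 15121 peaks with a score whose unit is not stated. The study's methods describe unique alignment. Other versions, the threshold and the handling of duplicate reads are not given in the sources used here. Repeats that reads cannot be placed in uniquely would then hold no peak, and the absolute score cannot be compared outside this list.

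Peak centres were placed on GENCODE M1, and sequences came from NCBIM37, the same assembly as mm9. Coordinates count from 1. Control windows that held a peak or unsequenced bases were left out with their peak, which left 2256 pairs. Introns were numbered in the longest spliced coding transcript. Two-sided Fisher's exact tests, exact McNemar tests, Benjamini-Hochberg adjustment, and Wilson and exact Poisson 95% intervals were used. Depth per library was not analysed here.

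The intronic peaks, motifs and gene lists were chosen with earlier results of these data known. Named were the 10 highest and 5 widest peaks, the 5 genes with most peaks, the 3 highest peaks per list, the 5 highest host genes per array list, and 22 genes the study discusses or that mark DC. A value that this rule names is not reported here. The alternatives changed thresholds, TSS sets, distance limits, peak joining, exon overlap, windows, patterns and gene assignment. The methods were tested on simulated data. Scripts ran in Python 3.11.15 with scipy 1.17.1 for the tests, pandas 2.3.3 and numpy 2.4.6 for tables, and matplotlib 3.10.9 for plots.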

Additional observations from a re-analysis of the deposited data

How the results depend on the processing

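No paired analysis was possible because the deposited list is 1 peak call without a value per replicate, and for the same reason no replicate could be left out. The number of intronic peaks stayed between 1811 and 2318 with other TSS sets, joined peaks, stricter exons, a lower limit of 2 kb or, added after seeing the data, without peaks in Gm20388 alone. It was 1379 up to 5 kb, 1184 at or above the list median and 626 at or above the upper quartile, by construction. For scores against the list median, the odds ratios against peaks between genes and against intronic peaks beyond 10 kb passed at 1.15 and 1.14 with near peaks joined, where the cause was not tested. With only the strongest peak per gene or gap they were 1.25, past the threshold, and 0.916, and that against all other peaks was 0.975, but this choice uses the score itself and depends on how many peaks share a gene or gap, so these values show no difference in score. When peaks that touch an exon were counted among all other peaks, the ratio against these was 0.994. The excess of TGTGGT over windows passed under all 7 alternatives, with ratios of 1.97 to 3.56. That of TGACGT passed under 5 of 6, and not at or above the upper quartile, with a ratio of 1.46 on fewer peaks. Against peaks between genes 2 motifs passed throughout, but CAGGTG was replaced by GGAANNGAA over whole peaks (0.799) and by TGANTCA at or above the list median (1.62). Motifs that passed fell from 2 to 1 against intronic peaks beyond 10 kb, over whole peaks and at or above the list median, and from 8 to 5 against all other peaks at or above the list median. Host genes fell from 1693 to 963 at or above the list median. The density ratio to sequence between genes was 1.29 over peaks of at least the median score and 0.988 with protein-coding TSS, and that to introns beyond 10 kb was 2.12 with protein-coding TSS. What limits all of these is the missing depth and replicate spread.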
